A study of Gallus gallus with 20 samples.

Results

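The G-protein coupled receptors of chicken HD11 macrophages were followed after stimulation with Salmonella endotoxin. They were taken by name: every probe set with 1 gene name in the array annotation was included when that name began with ADORA, GPR, P2RY, PTGER, CCR, CXCR, HTR, ADRB, S1PR or LPAR and a digit, or was PTAFR. This gave 99 of 13782 named genes, with 168 of the 38439 probe sets tested. By name they include 4 adenosine receptors, 9 chemokine receptors, 3 prostaglandin E receptors, the receptor for platelet-activating factor (PTAFR), 7 genes named as nucleotide receptors, 13 named as serotonin receptors, 1 sphingosine 1-phosphate receptor and 60 genes with a GPR number. No LPAR name was in the annotation, but GPR23, GPR92 and P2RY5 are older names of the lysophosphatidic acid receptors LPAR4, LPAR5 and LPAR6. A name is not a structure: HTR3A is an ion channel, GPR177 is WLS, a carrier of Wnt proteins, and GPR155 is a multipass protein of the lysosome in human cells.

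A G-protein coupled receptor crosses the membrane with a bundle of helices and, when its ligand binds, activates a G protein inside the cell that raises or lowers cAMP or turns on phospholipase C. Kinases of the GRK family and RGS proteins end the signal. Macrophages use these receptors to move along chemokine gradients and to sense lipids, nucleotides and adenosine released at sites of inflammation, and in mammals receptors that raise cAMP dampen cytokine output.

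All groups are HD11 cells, an established chicken line of macrophage type that was immortalised by a virus carrying an oncogene, and each culture is the same line. Each array measured RNA pooled from several flasks given 1 µg/ml endotoxin of Salmonella typhimurium-798 or vehicle (0 µg/ml) and collected after 1, 2, 4 or 8 hours (hps, hours post stimulation). The 20 arrays comprised, per time, 3 with endotoxin and 2 with vehicle, because the third replication had no vehicle. Levels are RMA values on the log2 scale, and differences are endotoxin minus vehicle with the standard error (SE) from limma, in a fit of all 38439 probe sets with a term for replication. A probe set was called at a q value under 0.05. A level of pooled RNA cannot tell a change in the share of cells from a change in RNA per cell, and levels of different probe sets are not comparable.

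Correlations between arrays were 0.9914 or above, and all 11 measured macrophage markers of 12 listed were among the brighter 19219 probe sets. So were 4 of 5 B cell, 3 of 6 T cell, 2 of 5 fibroblast and 0 of 2 thrombocyte markers measured. The vehicle-treated arrays at 4 hps stood apart. The signal of actin near its 3′ end minus that near its 5′ end was -0.15 to 0.01 on the endotoxin-treated arrays at 4 hps, against 0.35 and 0.22 on the vehicle-treated arrays of that time. On the other vehicle-treated arrays this gap was 0.00 to 0.11, and on endotoxin-treated arrays at the other times it was -0.06 to 0.19. The same gap of GAPDH was -0.09 to 0.04 with endotoxin and 0.03 and -0.04 with vehicle at 4 hps, which overlapped. That of EF1 was 0.09 to 0.18 with endotoxin and 0.16 and 0.09 with vehicle at 4 hps, and overlapped too. Along the first principal component the scores of endotoxin replication 3 were 32.1 at 1 hps and 33.6 at 2 hps, those of vehicle at 4 hps were 24.4 and 14.7, and the remaining arrays lay between -21.9 and 12.1. Across all probe sets 5.47% differed between vehicle at 4 hps and vehicle at the other times. For this reason endotoxin at 4 hps was also compared with vehicle at 1, 2 and 8 hps, in a fit without the vehicle-treated arrays of 4 hps. This second comparison mixes treatment with time, and both comparisons share the endotoxin-treated arrays.

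At the early times few probe sets of the whole array were called, and none of them was a receptor. At 1 hps 0 of 168 probe sets were called, against 0.0364% of all probe sets, and at 2 hps 0 were called, against 0.0859%. At an unadjusted p under 0.05, limma gave 6 receptor probe sets at 1 hps (3.57%, against 3.48% of all) and 14 at 2 hps (8.33%, against 4.33%). The lowest q at 2 hps was that of P2RY8, a relative of the nucleotide receptors, with a difference of -0.46 (SE 0.10, q = 0.258, limma). At 4 hps 16 were called (9.52%, against 8.08% of all), 5 higher and 11 lower, for 5 and 10 genes. The background of higher calls was 4.95% and that of lower calls 3.13%. Of all 13782 named genes, 10.3% had a probe set called higher and 5.34% had 1 called lower. The median receptor difference at 4 hps was -0.09, against -0.02 over all probe sets. Of the 168 differences 115 were negative, and that share over all probe sets was not counted. At 8 hps 1 was called (0.595%, against 0.159% of all).

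**Figure D1:**
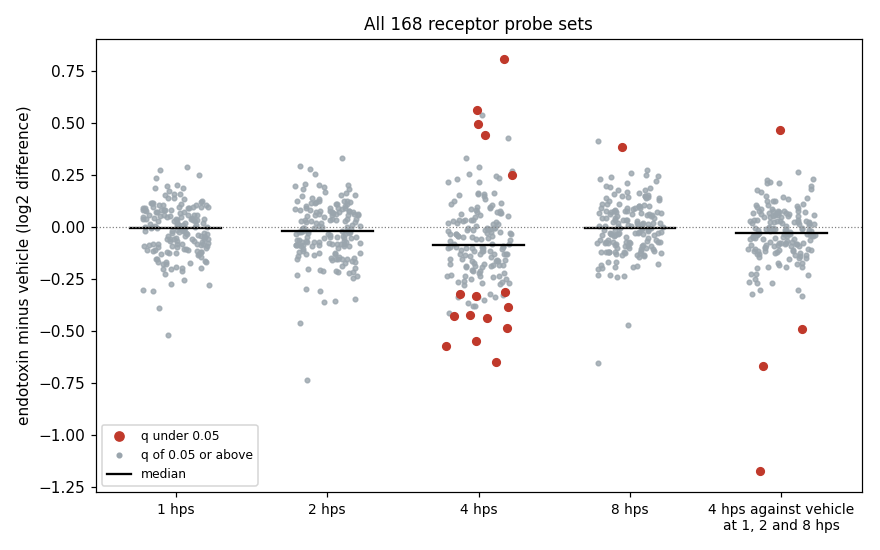
Endotoxin minus vehicle (log2 difference, y axis) for each of the 168 receptor probe sets at 1, 2, 4 and 8 hps and for endotoxin at 4 hps against vehicle at 1, 2 and 8 hps. Red points have a q under 0.05, grey points do not, and the black line is the median. The 16 red points at 4 hps become 4 when vehicle at 1, 2 and 8 hps is used.

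The groups at 4 hps did not overlap for 17 receptor probe sets with endotoxin above vehicle (10.1%) and for 41 with endotoxin below vehicle (24.4%). Over all probe sets the shares were 15.7% above and 15.7% below. Against vehicle at 1, 2 and 8 hps 4 of the 168 were called (2.38%, against 1.35% of all). ADORA2B was higher (0.687% of all were), and GPR146 and both probe sets of P2RY5 were lower (0.663% of all were). Of the 16 receptor probe sets called at 4 hps, 7 also differed between vehicle at 4 hps and vehicle at the other times. Both comparisons use the vehicle-treated arrays of 4 hps, so calls in the 2 are not independent. The matching share over all probe sets was not counted. Summed levels of markers of other cell types were also compared at 4 hps. The summed log2 level of 5 B cell markers was 29.99 to 30.61 with endotoxin and 30.94 to 31.34 with vehicle at 4 hps, and 29.95 to 30.78 with vehicle at the other times. For 5 of 6 fibroblast markers it was 23.93 to 25.17 with endotoxin and 25.25 to 25.41 with vehicle at 4 hps, and 24.43 to 25.59 with vehicle at the other times. For 6 of 7 T cell markers it was 35.74 to 36.15 with endotoxin and 36.11 to 36.92 with vehicle at 4 hps, which overlapped, and 35.9 to 36.63 with vehicle at the other times. For 2 of 3 thrombocyte markers it was 8.37 to 8.77 with endotoxin and 8.98 to 8.99 with vehicle at 4 hps. With vehicle at the other times their sum was 8.45 to 8.84. The part of the actin gap and of these markers in the receptor calls at 4 hps was not tested. The count of 16 also rested on single arrays: it was 1, that of ADORA2B, without vehicle replication 1 at 4 hps, 8 without endotoxin replication 1, 10 without endotoxin replication 3, and 1 in a fit without the replication term.

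Among the adenosine receptors, ADORA2B rose with endotoxin at 4 and 8 hps. It encodes the low-affinity adenosine receptor, which raises cAMP. At 4 hps its level was 9.73, 9.79 and 9.71 on the endotoxin-treated arrays, against 9.17 and 9.27 on the vehicle-treated arrays. The groups were apart, and the endotoxin-treated values also lay above the 9.24 to 9.44 of vehicle at 1, 2 and 8 hps. The difference at 4 hps was 0.56 (SE 0.07, q = 0.00091, limma), a 1.48-fold higher level, and against vehicle at 1, 2 and 8 hps it was 0.47 (SE 0.06, q = 0.000676).

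At 8 hps ADORA2B had levels of 9.70, 9.74 and 9.55 with endotoxin, against 9.24 and 9.40 with vehicle, again without overlap. The difference was 0.38 (SE 0.07, q = 0.0437), or 1.30-fold, and this call was lost when any of 18 of the 20 arrays was left out, with differences of 0.33 to 0.44. At 1 hps the endotoxin-treated arrays read 9.35, 9.33 and 9.17, against 9.25 and 9.28 with vehicle, which overlapped. At 2 hps they read 9.53, 9.50 and 9.41, against 9.27 and 9.44, and overlapped too. The interaction of dose and time had a q of 0.175, so a difference between times in the endotoxin effect was not called. ADORA2B was the receptor still called at 4 hps when vehicle replication 1 of that time was left out and in the fit without the replication term (q = 0.0251).

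The other adenosine receptors were not called at any time. ADORA3 had the most negative differences of the family, -0.17, -0.16, -0.24 and -0.19 at 1, 2, 4 and 8 hps (lowest q = 0.17). ADORA2A, which also raises cAMP, had -0.07 at 4 hps and 0.21 at 8 hps, and ADORA1 had 0.07 and -0.05.

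GPR146 was lower with endotoxin at every time. It is an orphan receptor whose loss lowers plasma cholesterol in mice. At 1 hps its level was 6.85, 6.64 and 6.39 on endotoxin-treated arrays, against 7.35 and 7.24 on vehicle-treated arrays. At 2 hps it was 6.34, 6.06 and 5.40 with endotoxin, against 6.81 and 6.82 with vehicle. No endotoxin-treated array reached the vehicle-treated arrays of its time. At 4 hps the levels were 5.69, 5.80 and 5.93 with endotoxin, against 6.69 and 6.51 with vehicle. At 8 hps they were 6.66, 6.81 and 5.93 with endotoxin, against 7.37 and 7.16 with vehicle. The lowest endotoxin-treated array at 1, 2 and 8 hps was that of replication 3, which has no vehicle partner.

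The differences of GPR146 were -0.52, -0.73, -0.65 and -0.65 at 1, 2, 4 and 8 hps (SE 0.19 each), of which that at 4 hps was called (q = 0.035, limma). Averaged over 1, 2 and 8 hps the difference was -0.63 (SE 0.11, q = 0.0197), a 1.55-fold lower level, and GPR146 was the 1 receptor probe set called in this average, against 0.271% of all probe sets. This call was kept in the fit without the replication term (-0.78, q = 0.0216) and without endotoxin replication 3 at 1 and 2 hps (-0.62, q = 0.0347), and was lost when any of 10 of the 20 arrays was left out (-0.70 to -0.56). Against vehicle at 1, 2 and 8 hps, endotoxin at 4 hps gave -1.17 (SE 0.15, q = 0.00107), or 2.25-fold lower. Vehicle-treated cells also changed over time, with the lowest mean at 4 hps, so part of the 2.25-fold lies between vehicle at 4 hps and vehicle at the other times. GPR146 overlaps C7orf50 in the RefSeq annotation of assembly GRCg7b, and both probe sets of C7orf50 had differences near 0 at 4 hps (-0.01 and 0.04).

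**Figure D2:**
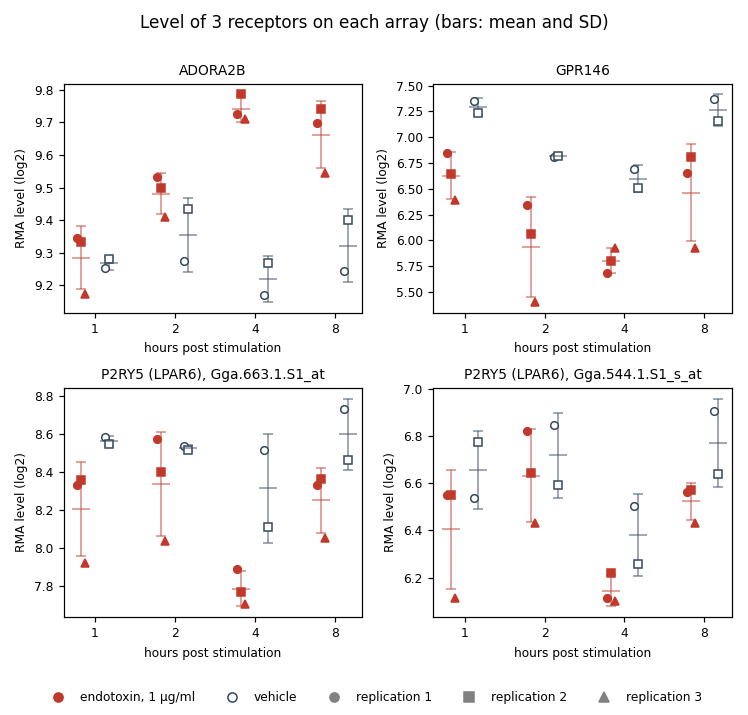
RMA level (log2, y axis) on each array by hours post stimulation for ADORA2B, GPR146 and both probe sets of P2RY5, with endotoxin in red to the left and vehicle in dark open symbols to the right. Symbols mark the replication and bars the mean and SD (n = 3 endotoxin, n = 2 vehicle). ADORA2B separates at 4 and 8 hps, GPR146 is lower with endotoxin at each time, and P2RY5 is lowest with endotoxin at 4 hps.

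Of the lysophosphatidic acid receptors, P2RY5 (LPAR6) was lower with endotoxin at 4 hps on both of its probe sets when set against vehicle at 1, 2 and 8 hps. On the brighter of these its level at 4 hps was 7.89, 7.76 and 7.70 with endotoxin, against 8.52 and 8.11 with vehicle and 8.46 to 8.73 with vehicle at the other times. On the dimmer it was 6.11, 6.22 and 6.10 with endotoxin, against 6.50 and 6.26 with vehicle and 6.54 to 6.90 with vehicle at the other times. Neither probe set had overlapping groups at 4 hps, and in each the vehicle-treated array of replication 2 was the nearer to the endotoxin-treated arrays.

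The difference at 4 hps was -0.42 (SE 0.10, q = 0.0221) on the brighter probe set, 1.34-fold lower, and -0.16 (SE 0.12, q = 0.278) on the dimmer. The call on the brighter probe set was lost without vehicle replication 1 at 4 hps (-0.26, q = 0.245) and without endotoxin replication 1 at 4 hps (-0.38, q = 0.0819). Against vehicle at 1, 2 and 8 hps the differences were -0.67 (SE 0.07, q = 0.000349), or 1.59-fold lower, and -0.49 (SE 0.09, q = 0.0166), or 1.41-fold lower (limma). The call on the dimmer probe set was lost without endotoxin replication 1 at 4 hps (-0.40, q = 0.111) and without endotoxin replication 2 at 4 hps (-0.51, q = 0.0742). Vehicle at 4 hps minus vehicle at the other times was -0.25 (q = 0.0867) on the brighter probe set and -0.33 (q = 0.0546) on the dimmer (limma). Neither was called, but part of the -0.67 and of the -0.49 lies between these vehicle groups. At 1, 2 and 8 hps the brighter probe set had -0.25, -0.08 and -0.24, none called. P2RY5 lies within RB1 in the same annotation, and 3 probe sets of RB1 had -0.02, -0.09 and -0.06 at 4 hps.

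GPR23 (LPAR4) was lower at 4 hps on 1 of 3 probe sets. Its level on the brightest was 4.71, 4.42 and 4.81 with endotoxin, against 5.22 and 5.04 with vehicle, a difference of -0.57 (SE 0.10, q = 0.00592, limma). Vehicle at the other times lay at 4.71 to 4.90 and overlapped the endotoxin-treated arrays, and against it the difference was -0.27 (q = 0.112). The other probe sets of GPR23 had -0.08 and 0.07 at 4 hps. GPR92 (LPAR5) had 0.03 (q = 0.548) and -0.06 (q = 0.439, limma) on its probe sets at 4 hps, neither called. S1PR1, the receptor of the related lipid sphingosine 1-phosphate, had 0.09 (q = 0.426).

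**Figure D3:**
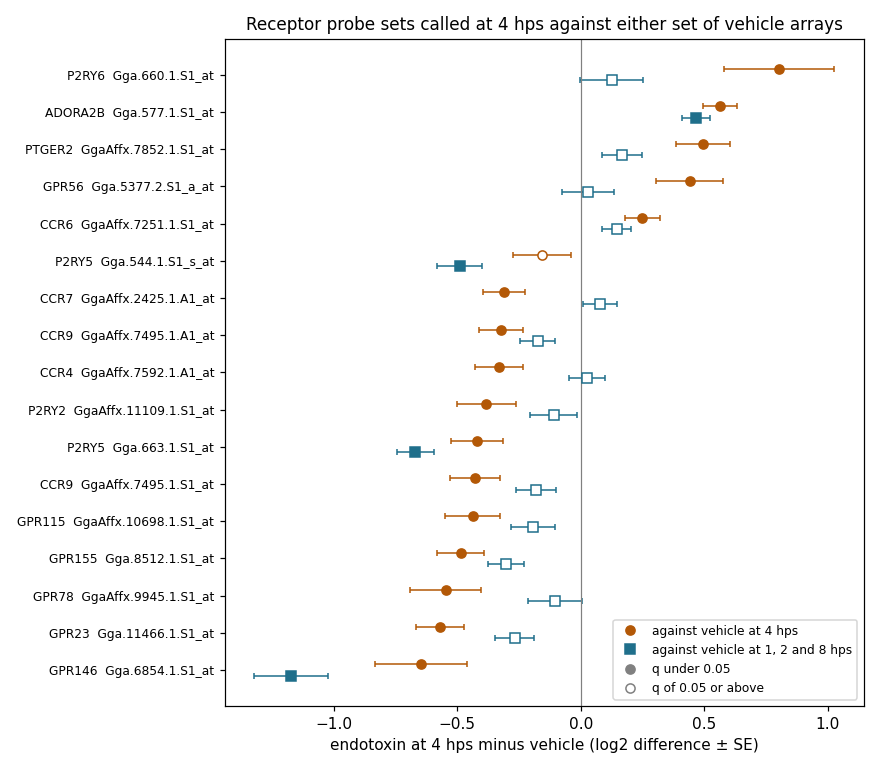
Endotoxin at 4 hps minus vehicle (log2 difference, x axis, with SE) for the 17 receptor probe sets called against either set of vehicle arrays. Orange circles use vehicle at 4 hps, blue squares vehicle at 1, 2 and 8 hps, and filled symbols have a q under 0.05. ADORA2B, GPR146 and P2RY5 are the genes with filled blue squares.

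Of the 9 chemokine receptors, with 13 probe sets, 3 genes were lower and 1 higher at 4 hps on any probe set. Over all named genes counted in this way 5.34% were lower and 10.3% higher. At 1, 2 or 8 hps, or against vehicle at 1, 2 and 8 hps, 0 chemokine receptors were called. At an unadjusted p under 0.05, limma gave 2, 2, 8 and 0 of the 13 probe sets at 1, 2, 4 and 8 hps and 6 for endotoxin at 4 hps against vehicle at the other times. Over all probe sets the shares were 3.48%, 4.33%, 22.4% and 5.35% at the 4 times and 12.9% in the other comparison. CCR9, which binds CCL25 and guides lymphocytes to the gut in mammals, was lower on both probe sets. On its S1 probe set the level was 4.61, 4.67 and 4.72 with endotoxin, against 4.94 and 5.05 with vehicle (difference -0.43, SE 0.10, q = 0.0189, limma). Vehicle at the other times spanned 4.54 to 5.03 and covered the endotoxin-treated range. On the A1 probe set the difference was -0.32 (q = 0.0297). LZTFL1, which overlaps CCR9 in the annotation, had 0.39 (q = 0.0696).

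CCR7, the receptor for CCL19 and CCL21, was called lower on its A1 probe set, with 4.88, 5.04 and 5.18 with endotoxin, against 5.24 and 5.35 with vehicle (-0.31, q = 0.0311). Against vehicle at the other times, which lay at 4.78 to 4.97, its difference was 0.08 (q = 0.549), of the opposite sign. CCR4, which binds CCL17 and CCL22, was called lower on its A1 probe set, with 3.08, 3.33 and 3.20 with endotoxin, against 3.45 and 3.66 with vehicle (-0.33, q = 0.0377), and had -0.22 (q = 0.243) without vehicle replication 2 at 4 hps. Against vehicle at the other times it had 0.03 (q = 0.719). On the A1 probe sets of CCR4 and CCR7 the vehicle-treated arrays at 4 hps had the highest mean of the 8 groups. They exceeded vehicle at the other times by 0.36 (q = 0.0247) and 0.39 (q = 0.0137, limma). The S1 probe sets had -0.41 (q = 0.0573) for CCR4 and -0.25 (q = 0.0528) for CCR7 at 4 hps. There vehicle at 4 hps exceeded vehicle at the other times by 0.31 (q = 0.105) and 0.10 (q = 0.283). Against vehicle at the other times the S1 probe set of CCR4 had -0.11 (q = 0.582).

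CCR6, the receptor for CCL20, was called higher at 4 hps, with 3.26, 3.52 and 3.27 with endotoxin, against 3.08 and 3.22 with vehicle (0.25, SE 0.07, q = 0.0359). This call was lost when any of 4 arrays was left out (0.21 to 0.31 over all such fits). Against vehicle at the other times CCR6 had 0.15 (q = 0.227). The called probe sets of CCR4, CCR6, CCR7 and CCR9 were all outside the brighter 19219. Whether their signal lay above background was not tested. CXCR4, which binds CXCL12, had 10.78, 10.77 and 10.84 with endotoxin at 1 hps, against 10.97 and 11.15 with vehicle, which did not overlap. Its differences were -0.28, -0.20, -0.02 and -0.13 at 1, 2, 4 and 8 hps. Averaged over 1, 2 and 8 hps it had -0.20 (SE 0.04, q = 0.0649), which passed the threshold with limma's trend and robust options (q = 0.00123) and among the brighter probe sets alone (q = 0.0116). CCR2, CCR8, CXCR5 and CXCR7 lay between -0.24 and 0.22 at 4 hps, none called.

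**Figure D4:**
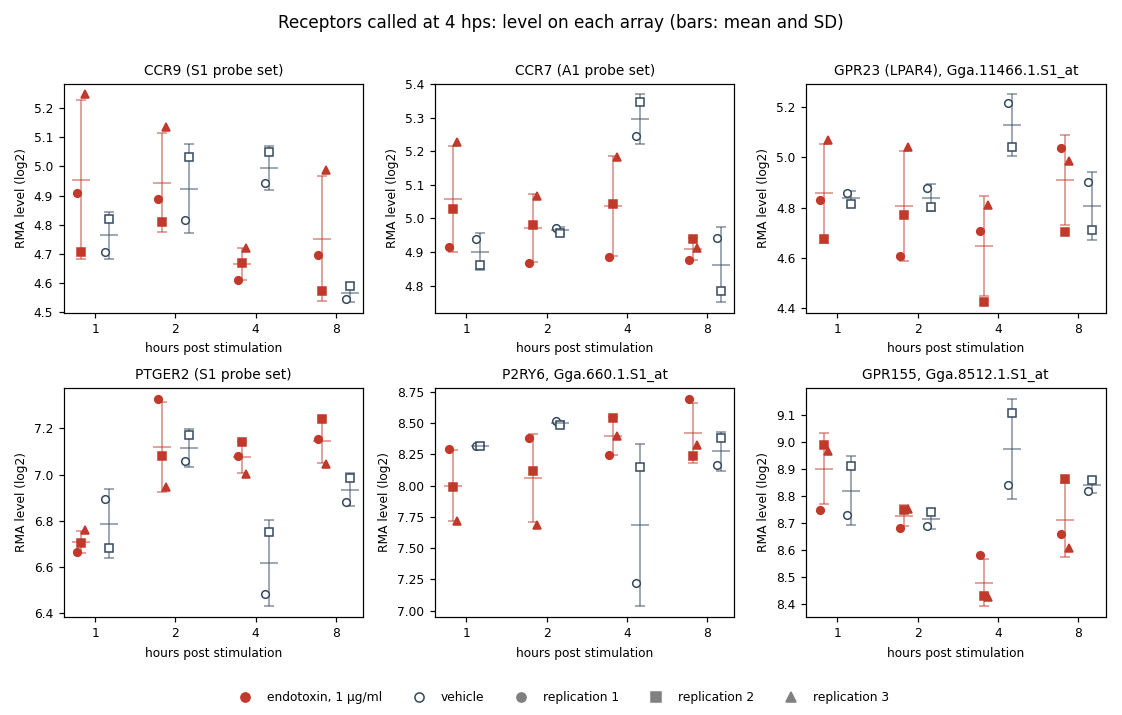
RMA level (log2, y axis) on each array by hours post stimulation for CCR9, CCR7, GPR23, PTGER2, P2RY6 and GPR155, with endotoxin in red to the left and vehicle in dark open symbols to the right. Bars are the mean and SD (n = 3 endotoxin, n = 2 vehicle). The groups are apart at 4 hps in each panel, and for CCR7 and GPR23 the vehicle-treated arrays at 4 hps lie above vehicle at the other times.

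PTGER2, a prostaglandin E receptor that raises cAMP, was higher at 4 hps on its S1 probe set. The level was 7.08, 7.14 and 7.00 with endotoxin, against 6.48 and 6.75 with vehicle (0.49, SE 0.11, q = 0.0151, limma). Vehicle at the other times ran from 6.68 to 7.17 and overlapped the endotoxin-treated arrays (0.17, q = 0.32), and vehicle at 4 hps lay 0.33 below it (q = 0.0457). The A1 probe set of PTGER2 had -0.10 at 4 hps. PTGER3, which lowers cAMP in mammals, had -0.32 and -0.38 on its probe sets (q = 0.0853 and 0.0668), and PTGER4 had 0.08 and 0.07. Both probe sets of PTAFR had -0.10 (q = 0.392 and 0.334).

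Of the 7 genes named as nucleotide receptors, 1 was higher and 2 lower at 4 hps, P2RY5 among the lower. Counted by any probe set, as here, 10.3% of all named genes were higher and 5.34% lower. P2RY6, a receptor for UDP, read 8.24, 8.54 and 8.40 on the dimmer of its probe sets with endotoxin, against 7.22 and 8.15 with vehicle. The vehicle-treated array of replication 1 was the lowest of the 20 arrays on this probe set. The difference was 0.80 (SE 0.22, q = 0.0318), and it was 0.31 (q = 0.376) without that array and 1.30 without the vehicle-treated array of replication 2. The call was also lost without any 1 of the endotoxin-treated arrays at 4 hps. Against vehicle at the other times the difference was 0.12 (q = 0.582), and on the brighter probe set of P2RY6 the difference at 4 hps was 0.03 (q = 0.537). P2RY2, a receptor for ATP and UTP, was lower on its S1 probe set, with 5.01, 5.19 and 5.45 with endotoxin, against 5.48 and 5.60 with vehicle (-0.38, q = 0.0448). This call was lost when any of 14 of the 20 arrays was left out (-0.44 to -0.29 over all such fits). Against vehicle at the other times it had -0.11 (q = 0.536). P2RY1, P2RY13 and P2RY14 had 0.25, -0.19 and -0.14 at 4 hps, and P2RY8 had -0.33 and -0.02, none called.

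The 60 genes with a GPR number had 111 probe sets, of which 1 was higher and 5 lower at 4 hps, GPR146 and GPR23 among the lower. Differences of the GPR-numbered probe sets ran from -0.65 to 0.54 with a median of -0.06, against -0.02 over all probe sets. Of the 111, 77 were negative, and the share of negative differences over all probe sets was not counted. GPR155 read 8.58, 8.43 and 8.43 on the brighter of its probe sets with endotoxin, against 8.84 and 9.11 with vehicle and 8.69 to 8.91 with vehicle at the other times, so the endotoxin-treated arrays lay below all of the vehicle-treated arrays. The difference was -0.49 (SE 0.09, q = 0.00966, limma), and against vehicle at the other times it was -0.30 (SE 0.07, q = 0.0509). Its second probe set had -0.01. GPR78, an orphan receptor, read 4.34, 4.40 and 4.72 with endotoxin, against 5.12 and 4.80 with vehicle (-0.55, q = 0.0267), and against vehicle at the other times it had -0.10 (q = 0.587).

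Among the adhesion receptors, which carry long extracellular domains, GPR115 (ADGRF4) was lower and GPR56 (ADGRG1) higher at 4 hps. GPR115 read 4.05, 4.26 and 4.09 with endotoxin, against 4.47 and 4.56 with vehicle (-0.44, SE 0.11, q = 0.0238). GPR56 read 6.62, 6.88 and 6.75 on 1 of its 3 probe sets with endotoxin, against 6.25 and 6.54 with vehicle (0.44, SE 0.14, q = 0.0443). This GPR56 call was lost when any of 17 of the 20 arrays was left out (0.32 to 0.56 over all such fits). Its other probe sets had 0.54 (q = 0.0727) and -0.03. Against vehicle at 1, 2 and 8 hps GPR115 had -0.19 (q = 0.301) and GPR56 0.03 (q = 0.739). None of the 13 genes named as serotonin receptors was called for endotoxin against vehicle at any time by limma, with 0, 0, 4 and 0 of 18 probe sets at an unadjusted p under 0.05 at 1, 2, 4 and 8 hps, against 22.4% of all probe sets at 4 hps. Their 18 probe sets ran from -0.38 to 0.27 at 4 hps, with a lowest q of 0.0785.

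The receptor calls at 4 hps were also counted by brightness. Of the 55 receptor probe sets among the brighter 19219, 4 were higher and 4 lower, against 8.76% higher and 3.19% lower over all probe sets there. Of the 113 dimmer ones 1 was higher and 7 were lower, against 1.13% higher and 3.07% lower. ADORA2B, GPR146 and both probe sets of P2RY5 were among the brighter.

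Receptor probe sets were also tested for change over time within each treatment. Over time, 25 receptor probe sets of 23 genes were called in endotoxin-treated cells (14.9%, against 10.9% of all). In vehicle-treated cells 12 probe sets of 12 genes were called (7.14%, against 7.55% of all), a share near that of the array. Of the receptor probe sets 8 were called in both treatments, and that share over all probe sets was not counted. GPR1, a receptor for chemerin, fell in both on its brightest probe set, and its other probe sets were called in neither. Its level on the brightest of 3 probe sets was 7.49, 7.44 and 7.53 at 1 hps and 6.95, 6.94 and 6.57 at 8 hps with endotoxin. With vehicle it was 7.47 and 7.34 at 1 hps and 6.88 and 6.78 at 8 hps. The change from 1 to 8 hps was -0.66 with endotoxin and -0.58 with vehicle, and the levels at 1 and 8 hps did not overlap in either. GPR112, an adhesion receptor, changed by -0.48 with endotoxin and -0.69 with vehicle on 1 probe set, and its other probe set was called in neither. CXCR4 changed by -0.25 with endotoxin and -0.39 with vehicle.

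P2RY13, a receptor for ADP, changed the other way. Its level was 7.78, 7.55 and 7.09 at 1 hps and 7.98, 7.84 and 7.99 at 8 hps with endotoxin, and 7.81 and 7.64 at 1 hps and 8.22 and 8.05 at 8 hps with vehicle. From 1 to 8 hps it rose by 0.46 with endotoxin and by 0.41 with vehicle (q for change over time 0.00125 and 0.0299). GPR157 was called for change over time with endotoxin on 1 probe set (q = 0.00174) and not with vehicle (q = 0.0713, limma's F test over all 4 times). From 1 to 8 hps it changed by 0.40 with endotoxin and by 0.35 with vehicle. Its other probe set was called in neither. HTR2A changed by 0.59 from 1 to 8 hps with endotoxin and by 0.34 with vehicle (q for change over time 0.00729 and 0.183). Both probe sets of GPR180 were called for change over time with endotoxin, and changed by 0.39 and 0.36 from 1 to 8 hps. No receptor was called for the interaction of dose and time by limma, as 0% of all probe sets were, and 23 receptor probe sets had an unadjusted p under 0.05 there (13.7%, against 11.5% of all). Without endotoxin replication 3 at 1 and 2 hps, 9 of the 25 calls in endotoxin-treated cells remained, those of ADORA2B, GPR1, GPR112, GPR146, GPR157, P2RY13, PTGER2 and both probe sets of P2RY5. Tested over 1, 2 and 8 hps alone, 3 of the 12 calls in vehicle-treated cells remained, those of CXCR4, GPR112 and P2RY13. That test kept the vehicle-treated arrays of 4 hps in the fit.

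**Figure D5:**
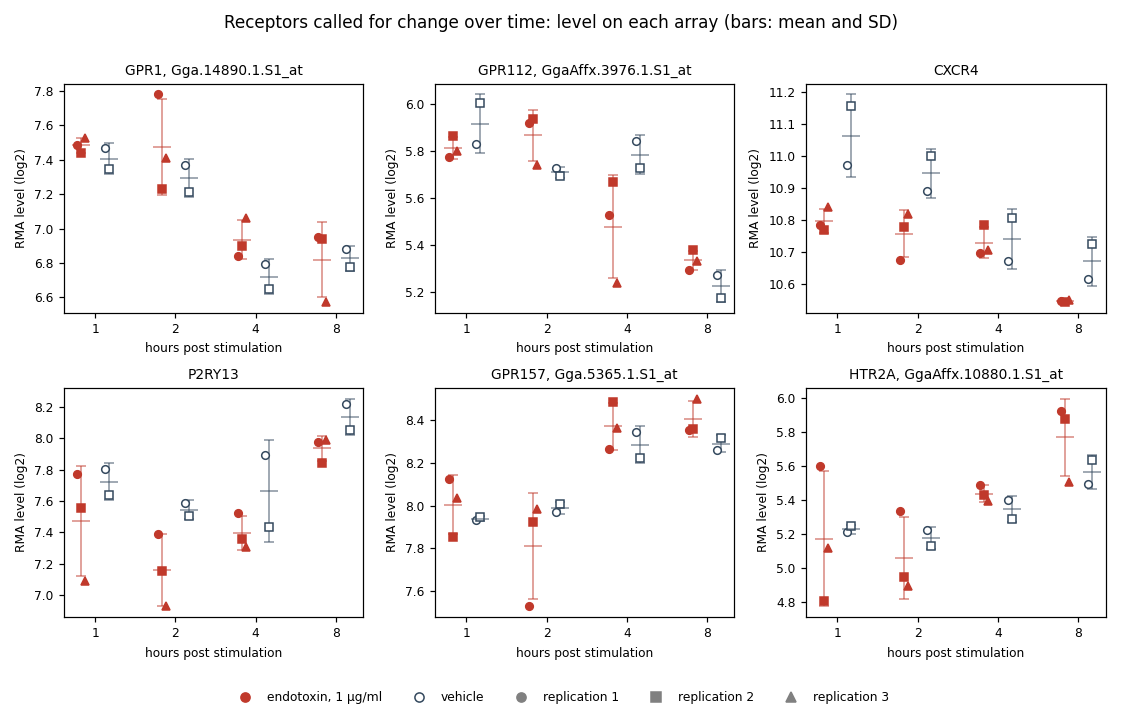
RMA level (log2, y axis) on each array by hours post stimulation for GPR1, GPR112, CXCR4, P2RY13, GPR157 and HTR2A, with endotoxin in red to the left and vehicle in dark open symbols to the right. Bars are the mean and SD (n = 3 endotoxin, n = 2 vehicle). GPR1, GPR112 and CXCR4 are lower at 8 than at 1 hps in both groups, and P2RY13 is higher.

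Genes that make or remove receptor ligands were measured on the same arrays, 22 genes in all, each read by its brightest probe set. Over all named genes read in this way 4.8% were called higher and 3.57% lower at 4 hps. NT5E, which makes adenosine from AMP outside the cell, was higher at 4 hps (0.87, SE 0.12, q = 0.00162), and ADA, which breaks adenosine down, was lower (-0.46, SE 0.12, q = 0.0233, limma). Both were also called against vehicle at 1, 2 and 8 hps (0.49, q = 0.00159 for NT5E and -0.45, q = 0.0235 for ADA). SPHK1, which makes sphingosine 1-phosphate, and SGPP1, which removes its phosphate, were called higher at 4 hps (0.71 and 0.50, q = 0.0325 and 0.0443). They had 0.08 and 0.24 against vehicle at the other times, where neither was called. PTGS2, which makes the precursor of prostaglandin E2, was higher in the average over 1, 2 and 8 hps (0.54, SE 0.10, q = 0.0337).

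Of 10 chemokine ligand genes measured, CCL4, a CC chemokine, and IL8 were higher at all 4 times, K123 at 2, 4 and 8 hps and CCL17 at 4 and 8 hps. Over all named genes 0.0871%, 0.145%, 4.8% and 0.297% were higher at 1, 2, 4 and 8 hps. CCL17, a ligand of CCR4 in mammals, had 1.17 at 4 hps and 1.37 at 8 hps. CCL20, the ligand of CCR6, and CXCL12, the ligand of CXCR4, had 0.03 and 0.00 at 4 hps and were not called. CCL19 was lower at 4 hps (-0.36, q = 0.0388) and had -0.02 against vehicle at the other times.

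Downstream of the receptors, each gene was read by its brightest probe set. Over all 13782 named genes read in this way, 4.8% were called higher and 3.57% lower at 4 hps. Of 23 G protein subunits, GNA13 was higher at 4 hps (1.10, SE 0.30, q = 0.0290) and had 0.17 against vehicle at the other times. Of 27 cAMP and phospholipase effectors, the cAMP-responsive factor CREB1 (0.58, q = 0.0064) and the kinase subunit PRKAR2B (0.54, q = 0.0231) were higher and the adenylyl cyclase ADCY8 lower (-0.36, q = 0.0328) at 4 hps. CREB1 was also higher against vehicle at the other times (0.33, q = 0.0366). PRKAR2B had 0.33 (q = 0.142) and ADCY8 had -0.23 (q = 0.173, limma) in that comparison, and neither was called. PDE4B, which breaks down cAMP, was higher in the average over 1, 2 and 8 hps (0.34, SE 0.06, q = 0.0137). Of 29 genes of receptor desensitisation, RGS3 was higher at 4 hps (0.38, q = 0.0198). Against vehicle at the other times RGS3 had 0.06, and 3 other genes of this list were called, RGS18 at 0.41 and GRK4 and RGS4 at -0.33 and -0.31. Against vehicle at 4 hps itself these genes were not called, with RGS18 of the opposite sign (-0.15, q = 0.245), GRK4 at -0.18 and RGS4 at -0.06. RGS18 also moved over time in vehicle-treated cells, with 6.86 and 6.81 at 1 hps and 8.07 and 7.85 at 4 hps.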

How the data were processed

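The deposited values are RMA levels on the log2 scale, 1 per probe set and array, which the authors made from Affymetrix chicken genome arrays. RMA and limma are named in the submitters' processing notes, and their versions and a genome build are not given in the sources used here. The authors' deposited table of log2 fold changes and q values (8 columns) was used for gene names only. A linear model of these log2 values with 8 dose-by-time groups and fixed replication effects was fitted in limma 3.58.1 (R 4.3.3) over 20 arrays and 38439 probe sets, without the 96 control probe sets (10 residual and 5.13 prior degrees of freedom; 9 and 5.12 without vehicle at 4 hps). Replications were run on different days per the methods, which pairs arrays by number; deviations of replications 1 and 2 in both treatments correlated at -0.141, 0.236, 0.0684 and 0.113 at 1, 2, 4 and 8 hps.

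The q values came from the histogram estimate the methods cite, with 20 bins, a number chosen here, and probe sets were called under 0.05. Changes over time and the interaction were tested with limma's F test. In simulated data for 4 hps, 46.3% of differences of 0.5 and 91.0% of differences of 1 were recovered, with 4 false calls of 161. The real data had 3106 calls at 4 hps, and in the simulation 0 probe sets changed over time with vehicle. Neither the simulated recovery nor the simulated false calls therefore give the rates in the real data at 4 hps, where the vehicle-treated arrays stood apart. The number of arrays limits the precision. Receptors named are those called in any comparison, the 10 largest changes each way at 4 hps, ADORA2B, GPR146 and the chemokine, adenosine, prostaglandin and platelet-activating factor families. GPR1, GPR112, GPR157, GPR180, HTR2A, P2RY8 and P2RY13, with the other receptors named outside that rule, were chosen after their values were seen. The members and lists were chosen with earlier results of these data known. Of the 168 probe sets, 67 matched a RefSeq gene of GRCg7b by accession, 74 by symbol, 3 by synonym and 24 not at all.

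Alternatives tried were Benjamini-Hochberg adjustment, replication left out of the model or taken as random, trend and robust options, array weights, median centring, cyclic loess, the brighter 19219 probe sets, arrays of the given time alone, and leaving out each replication, each array, vehicle at 4 hps, or endotoxin replication 3 at 1 and 2 hps. Keeping vehicle at 4 hps in the fit for the comparison with other vehicle times, and testing vehicle over 1, 2 and 8 hps alone, were added after the data were seen. Markers of erythroid cells were listed but 0 of 5 were named in the annotation. Results for some members are not reported here.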

Additional observations from a re-analysis of the deposited data

How the results depend on the processing

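All 22 receptor differences called kept their sign under every setting that could be fitted. Over 719 refits of them 485 stayed called and 234 did not. Receptor probe sets called at 4 hps (16) became 1 without the replicate block, which leaves replication out of the fit, 4 with the block as a random effect, 9 with Benjamini-Hochberg adjustment, 5 with array weights, 9 with cyclic loess and 0 with arrays of that time alone. Those at 8 hps (1) became 0 without the replicate block, with the block as a random effect, with median centring, without vehicle at 4 hps, without endotoxin replication 3 at 1 and 2 hps, and with arrays of that time alone. The average over 1, 2 and 8 hps (1) gave 3 with trend and robust options and 3 among the brighter probe sets, adding CXCR4 and ADORA2B. Endotoxin at 4 hps against vehicle at 1, 2 and 8 hps (4) gave 8 under each of these settings, adding CXCR4, GPR155, P2RY13 and GPR141. Change over time with endotoxin (25) gave 12 without the replicate block, 14 with Benjamini-Hochberg adjustment and 10 without endotoxin replication 3 at 1 and 2 hps. Change over time with vehicle (12) gave 3 without the replicate block, 4 with Benjamini-Hochberg adjustment, 7 with cyclic loess, 19 among the brighter probe sets, 6 without endotoxin replication 3 at 1 and 2 hps and 3 over 1, 2 and 8 hps alone. For these counts, and for all receptor counts with arrays left out, the shares over all probe sets under the same setting are not given. The counts therefore do not tell a change among receptors from a change over the whole array. The cause of these shifts was not tested.

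Leaving out 1 replication or 1 array gave 0 to 17 calls at 4 hps, 0 to 1 at 8 hps, 0 to 1 in the average, 0 to 5 against vehicle at 1, 2 and 8 hps, 0 to 2 for the interaction, 0 to 27 over time with endotoxin and 0 to 15 over time with vehicle. Without replication 1 there were 0 calls at 4 hps, and without replications 2 and 3 there were 5 and 6. Fits without replication 1 or 2 leave 1 vehicle-treated array per time, which is assumed to vary like the other groups. Against vehicle at 1, 2 and 8 hps, ADORA2B, GPR146 and the brighter P2RY5 probe set stayed called whichever 1 array was left out and lost the call without replication 1 or 2.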

Other observations

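For 25 pairs of receptor probe sets whose names differ only in A1 or S1, the median difference at 4 hps was -0.13 for A1 and -0.14 for S1. The differences had the same sign in 17 pairs, and 21 of 25 were negative in each kind. Of the pairs, 3 had A1 called and 3 had S1 called, and CCR9 was the 1 pair with both. Over all probe sets 8.08% were called at 4 hps. The same counts over all such pairs on the array were not made, so nothing particular to receptors can be read from them. Whether the A1 and S1 probe sets of a pair detect the same RNA was not tested. PTGER2 was called on S1 (0.49) while A1 had -0.10.

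Vehicle at 4 hps against vehicle at the other times called 12 receptor probe sets (7.14%, against 5.47% of all), 5 higher and 7 lower. Beside those named above, GPR125 and 2 of the 3 GPR56 probe sets were lower at 4 hps (-0.58, -0.64 and -0.41), as was HTR7 (-0.39).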
